A study of Sus scrofa with 11 samples.

Results

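GPX4, PRDX6, AIFM2, GCH1, DHODH, GSS, CBS and HSPB1 are genes that remove lipid peroxides or hold back ferroptosis. They were chosen by name, among those whose symbol was present in the deposited table of pig liver expression, which holds 12505 genes. All 8 passed the filter on low values (1 FPKM or more in 2 or more profiles), and none was listed at 0 in any library. FPKM is a fragment count scaled by transcript length and by mapped fragments, so levels can be compared between genes.

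The series holds 11 libraries of pig liver. The 2 controls are labelled day 0, and 3 libraries each come from livers given 20, 30 or 40 Gy of radiation and labelled day 35. All are labelled wild type, with liver as the tissue and hepatocyte as the cell line and the cell type. The sources used here do not give the strain, the age or the number of animals. Since nothing says that the libraries came from separate animals, p-values rest on a spread that may be technical. Since control and irradiated liver also differ in day, dose and elapsed time cannot be told apart against control, whereas the 3 doses share a day.

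Ferroptosis is an iron-dependent cell death in which peroxidised phospholipids build up in membranes. GPX4 reduces these peroxides with electrons from glutathione, and other systems work beside it: AIFM2 and DHODH regenerate the reduced form of coenzyme Q, which traps lipid radicals, and GCH1 starts the synthesis of tetrahydrobiopterin, another radical trap. GSS and CBS belong to the supply of glutathione, which the liver makes in large amounts, partly from the sulfur of methionine.

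The libraries did not separate cleanly by dose. Libraries 30Gy-1 and 30Gy-2 were near-identical (SD of the log2 ratio 0.137 over 4806 genes), and so were 20Gy-3 and 30Gy-3 of different dose groups (0.130), against 0.305 to 1.01 in the other 53 pairs. Sampling noise could not be computed without counts. The 30 Gy pair was averaged and counted as 1 profile, which leaves 10 profiles, and results are also given without 20Gy-3 and 30Gy-3. The libraries of 20 and 30 Gy fell into 2 sets that cut across dose: 20Gy-1 lay nearest to 20Gy-3 and 30Gy-3, and 20Gy-2 nearest to 30Gy-1 and 30Gy-2. Library 40Gy-1 lay nearer to 20Gy-2 (0.627) than to 40Gy-2 (0.858) or 40Gy-3 (0.889). Hepatocyte markers summed to between 16842 and 63729 FPKM, and none of the 10 was at 0. All 7 macrophage markers and all 6 endothelial markers also had a value above 0 in every library, with sums of 416 to 1114 and 87.7 to 311 FPKM, so the libraries hold RNA of other liver cells too. In bulk tissue, fewer cells of a type and less RNA per cell cannot be told apart. The FPKM totals ran from 520839 to 949840, and the depth is unknown.

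Below, a level is the FPKM as mean ± SD (n = 2 control, 3 at 20 Gy, 2 at 30 Gy and 3 at 40 Gy profiles). A change is a difference of log2(FPKM + 1) with the SE of limma, its p was adjusted over 11610 genes after Benjamini and Hochberg, and a gene "rose" or "fell" when that p was under 0.05. "Low doses" means 20 and 30 Gy together.

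By the median over the 10 profiles, the order of the members was HSPB1 (327 FPKM), PRDX6 (169), CBS (151), GPX4 (68.9), AIFM2 (16.1), GCH1 (12.7), GSS (11.3) and DHODH (4.53). HSPB1, PRDX6, CBS and GPX4 overlapped across libraries (130 to 740, 78.3 to 261, 57.8 to 336 and 47.3 to 95.8 FPKM), except HSPB1 with GPX4. Compared within each library, HSPB1 lay above PRDX6 and CBS above GPX4 in every library, whereas PRDX6 and CBS changed order between libraries. CBS stood above HSPB1 in control-2, 40Gy-2 and 40Gy-3. The other members, all below GPX4 in every library, overlapped likewise (9.83 to 19.7 for AIFM2, 2.41 to 37.0 for GCH1 and 8.18 to 19.2 for GSS). DHODH (1.97 to 6.49) lay below AIFM2 and GSS in every library, and above GCH1 in control-1 and 40Gy-1. AIFM2 and GPX4 varied least, with coefficients of variation of 20.7% and 24.6%, against a median of 32.6% over all genes tested. GCH1 varied most (78.7%), with a ratio of 15.4 between its highest and its lowest library.

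**Figure D1:**
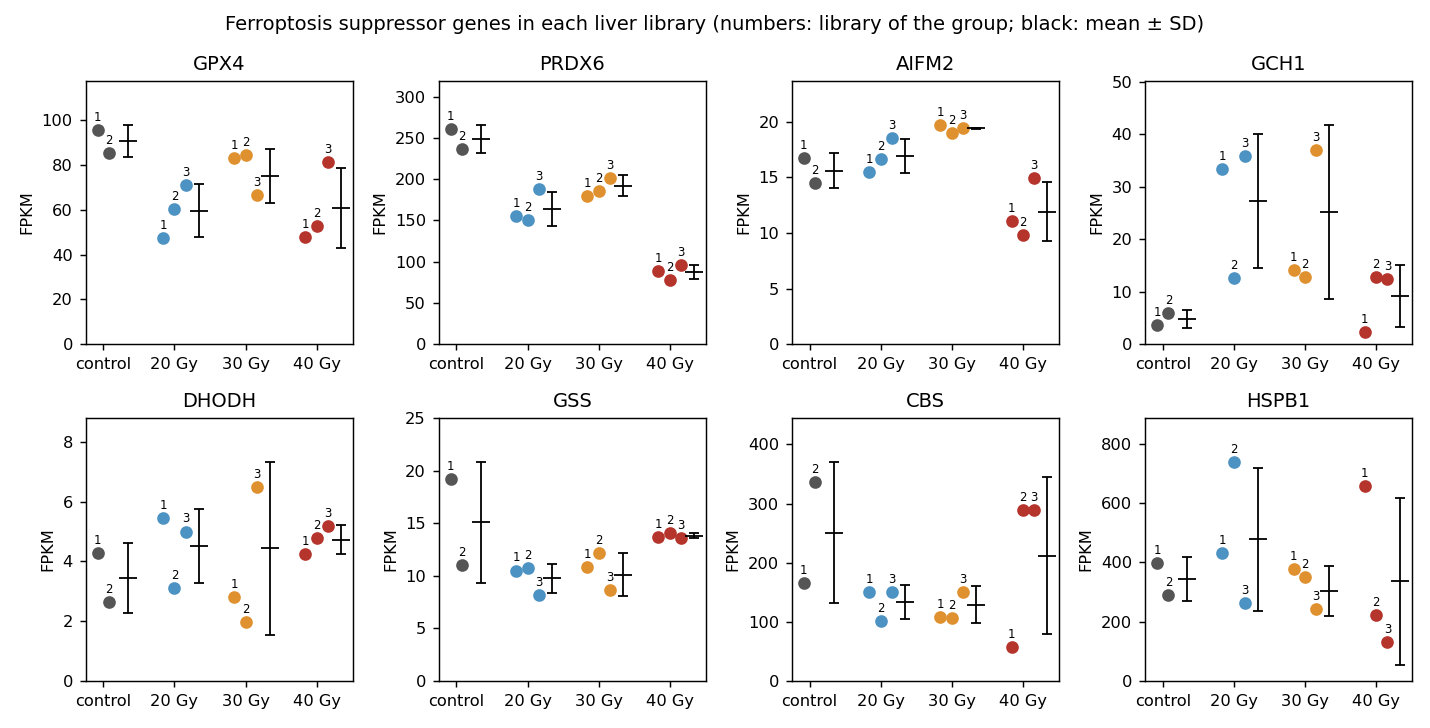
Level (FPKM, y axis from 0) of each of the 8 genes in each of the 11 libraries, by dose group (x axis). The digit is the library's number within its group, and the black bar is the mean ± SD over profiles, with 30Gy-1 and 30Gy-2 counted as 1. PRDX6 steps down from 237 to 261 FPKM in control to 78.3 to 95.8 at 40 Gy, whereas CBS and HSPB1 spread widely within 40 Gy.

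PRDX6 was the member with the clearest difference between groups, lower at 40 Gy than in control liver or at the low doses. It encodes peroxiredoxin 6, which reduces phospholipid hydroperoxides with glutathione and also has phospholipase activity (ENSSSCG00000022742, chromosome 9, 115857629 to 115868898, where it overlaps the end of an unnamed protein-coding locus). Its level was 261 and 237 FPKM in the controls, 155, 150 and 188 at 20 Gy, 180, 186 and 201 at 30 Gy, and 88.4, 78.3 and 95.8 at 40 Gy. Every irradiated library lay below both controls, and every 40 Gy library lay below every low-dose library.

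The mean of PRDX6 was 249 ± 16.8 FPKM in control and 87.5 ± 8.78 at 40 Gy, a 2.83-fold fall with the pseudocount of 1 included (log2 -1.50, SE 0.213, adjusted p = 0.00871). Against the low doses (164 ± 20.5 and 192 ± 12.6 FPKM) the 40 Gy level was 2.02-fold lower (log2 -1.01, SE 0.172, adjusted p = 0.00729). At 20 and 30 Gy the changes from control were -0.60 (SE 0.213, adjusted p = 0.169) and -0.38 (SE 0.234, adjusted p = 0.574), which did not pass the test. The mean of all doses against control was -0.83 (SE 0.185, adjusted p = 0.0499), just inside the threshold. That last call held without 40Gy-1 and was lost without each of the other 10 libraries (adjusted p 0.0511 to 0.312) and in 14 of 21 alternatives in all (range 0.0205 to 0.312), among them equal totals (0.311) and the fit without 20Gy-3 and 30Gy-3 (0.171). The call at 40 Gy against control was lost without control-1 (0.0745), without control-2 (0.0540), with all libraries rescaled to equal totals (0.0567) and with only these groups in the fit (0.0843), out of 22 alternatives with a range of 0.00254 to 0.0843. The call against the low doses was lost in 1 of 22, without 20Gy-3 and 30Gy-3 (-0.93, adjusted p = 0.0912), and its lowest adjusted p was 0.00207.

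Liver cell markers differed beside PRDX6 at 40 Gy. Hepatocyte markers summed to 40416 to 63729 FPKM in control, 44099 to 50326 at 20 Gy, 48318 to 54410 at 30 Gy and 16842 to 23369 at 40 Gy. Of the 10, albumin ALB (-2.06, SE 0.333, adjusted p = 0.013) and the asialoglycoprotein receptor ASGR1 (-1.43, SE 0.31, adjusted p = 0.0356) fell at 40 Gy, and the median of the list was -0.53 against 0.06 over all genes. The other 8 did not pass the test. Of all 10 markers, 8 had values below 0 and 2 above. Among those below were TF (-1.39), SERPINA1 (-0.62), APOB (-0.45) and APOA1 (-0.40). Transthyretin TTR was at -2.44 (adjusted p = 0.0519), CPS1 of the urea cycle at -0.03 (0.985), the transcription factor HNF4A at 0.32 (0.654) and tyrosine aminotransferase TAT at 1.75 (0.404). TAT had 171, 2427 and 2026 FPKM at 40 Gy against 261 and 302 in control. The sums are mostly ALB, with 42547 and 27026 FPKM in control and 10810, 7119 and 7050 at 40 Gy. The part of hepatocyte markers in the PRDX6 result was not tested.

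GPX4, the selenoenzyme that reduces phospholipid hydroperoxides inside membranes (ENSSSCG00000024052, chromosome 2, 77321568 to 77323931), was lower in every irradiated library than in both controls, but by amounts that did not pass the test. Its level was 95.8 and 85.5 FPKM in control, 47.3, 60.5 and 71.0 at 20 Gy, 83.3, 84.4 and 66.7 at 30 Gy, and 48.1, 52.9 and 81.3 at 40 Gy. Library 30Gy-2, at 84.4, lay just below control-2, so the groups were apart by a narrow margin. The change was -0.50 over all doses (SE 0.246, adjusted p = 0.332), -0.61 at 20 Gy (SE 0.283, adjusted p = 0.272), -0.27 at 30 Gy (SE 0.31, adjusted p = 0.772) and -0.60 at 40 Gy (SE 0.283, adjusted p = 0.247). Levels at 40 Gy and at the low doses overlapped (-0.16, SE 0.228, adjusted p = 0.649).

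Over all doses 1 of the 8 members fell (PRDX6) and none rose, where 1.72% of all genes tested fell and 1.18% rose. Both PRDX6 and GPX4 lay below control without overlap, 2 of 8, where 7.88% of all genes did so. At 40 Gy against control 1 of 8 fell and none rose (2.83% and 1.89% of all genes). At 40 Gy against the low doses 2 of 8 fell, PRDX6 and AIFM2, and none rose (7.24% and 8.11% of all genes). No member passed the limma test at 20 Gy against control, where 1.24% of all genes rose and 1.30% fell, and 2 of 8 members had an unadjusted p under 0.05, as did 19.6% of all genes. At 30 Gy none passed either (0.508% rose and 0.612% fell), and 1 of 8 had an unadjusted p under 0.05, as did 12.7% of all genes. Without overlap, 4 members lay below control at 20 Gy (GPX4, PRDX6, GSS and CBS, with 23.2% of all genes), 3 at 30 Gy (GPX4, PRDX6 and CBS, 23.3%) and 2 at 40 Gy (GPX4 and PRDX6, 17.9%). GCH1 lay above control at 20 Gy (19.0%), and GCH1 and AIFM2 did at 30 Gy (20.1%). At 40 Gy, PRDX6 and AIFM2 lay below the low doses (10.8%) and GSS above them (13.1%). The median change of the 8 was -0.21 over all doses, -0.22 at 20 Gy, -0.24 at 30 Gy and -0.36 at 40 Gy, beside medians of 0.01, -0.03, -0.03 and 0.06 over all genes. These 4 comparisons share the 2 control libraries.

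**Figure D2:**
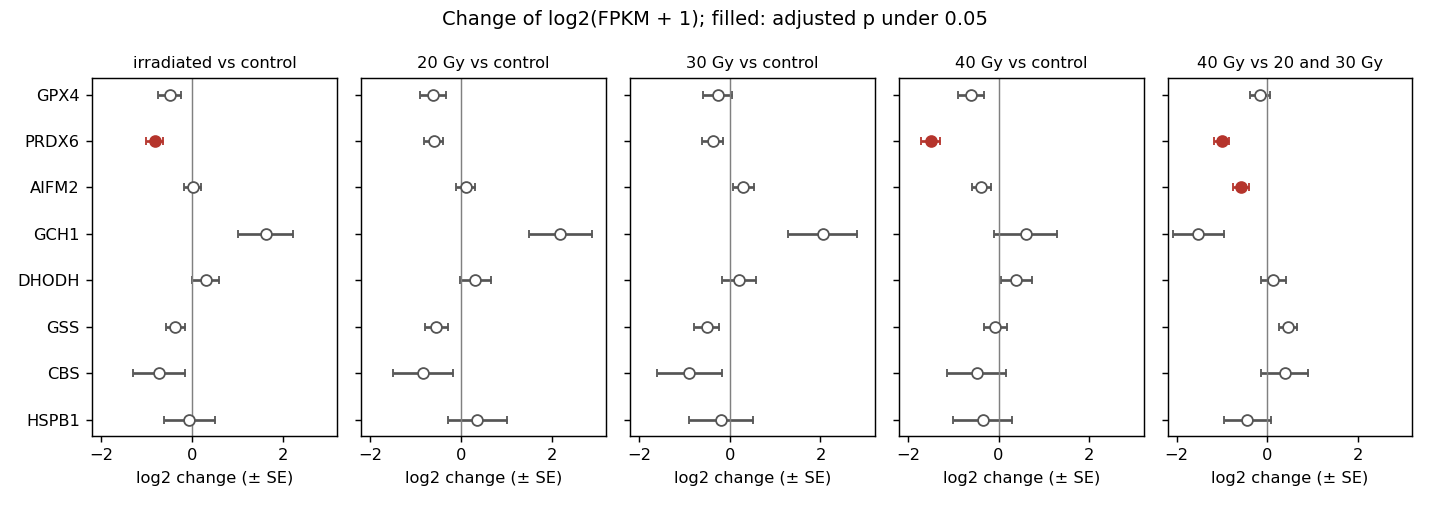
Change of log2(FPKM + 1) with its SE (x axis) for the 8 genes (y axis) in the 5 comparisons. Filled red points passed the limma test at an adjusted p under 0.05: PRDX6 over all doses, at 40 Gy and against the low doses, and AIFM2 against the low doses. GCH1 lies far to the right at 20 and 30 Gy (2.19 and 2.05) with wide errors.

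AIFM2, also called FSP1, is the NAD(P)H-dependent oxidoreductase that regenerates reduced coenzyme Q at the plasma membrane and lipid droplets (ENSSSCG00000010258, chromosome 14, 73054433 to 73074605, with an unnamed protein-coding locus overlapping each end). It was lower at 40 Gy than at the low doses. Its level was 16.7 and 14.5 FPKM in control, 15.5, 16.6 and 18.5 at 20 Gy, 19.7, 19.0 and 19.4 at 30 Gy, and 11.1, 9.83 and 14.9 at 40 Gy. The highest 40 Gy library lay just below the lowest low-dose library, control overlapped with 20 and 40 Gy, and all 30 Gy libraries lay above both controls. Against the low doses its log2 change was -0.58, a 1.49-fold fall (SE 0.168, adjusted p = 0.0478). Against control the change was 0.10 at 20 Gy, 0.30 at 30 Gy (SE 0.228, adjusted p = 0.647) and -0.38 at 40 Gy (SE 0.208, adjusted p = 0.326).

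The AIFM2 call is near its threshold. It was lost without 40Gy-2, 30Gy-3, 20Gy-3, 20Gy-1, control-1, control-2 and 20Gy-2 (adjusted p = 0.197, 0.132, 0.101, 0.087, 0.0651, 0.065 and 0.0616), without 30Gy-1 (0.050), without 20Gy-3 and 30Gy-3 together (0.235), and in 12 of 22 alternatives in all (range 0.0225 to 0.235). Beside it, 7 of 10 hepatocyte markers had values below 0 against the low doses, and 3 of these fell (ALB, TTR and ASGR1). TF (-1.94), SERPINA1 (-0.67), APOA1 (-0.41) and APOB (-0.06) lay below 0 without passing the test. TAT (0.86), HNF4A (0.53) and CPS1 (0.49) had values above 0 that did not pass the test. Beside these, 3 of 7 macrophage markers rose (CD14, CD68 and CD163). Macrophage markers summed to 755 to 1114 FPKM at 40 Gy, 416 to 767 at 20 Gy and 426 to 679 at 30 Gy. Of 5 neutrophil markers 3 were in the table (CSF3R, S100A8 and S100A12) and all 3 rose, with sums of 7.71 to 17.9 FPKM against 0.341 to 1.01 at the low doses, where S100A8 and S100A12 were listed at 0 in some libraries. Whether these cells had a part in the AIFM2 or PRDX6 values was not tested.

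DHODH, the mitochondrial enzyme of pyrimidine synthesis that passes electrons to coenzyme Q in the inner membrane (ENSSSCG00000002746, chromosome 6, 14942898 to 14956000, overlapping a long noncoding RNA), did not differ beyond its spread in any comparison. Its level was 4.28 and 2.63 FPKM in control, 5.45, 3.11 and 5.0 at 20 Gy, 2.81, 1.97 and 6.49 at 30 Gy, and 4.24, 4.77 and 5.18 at 40 Gy. Within 30 Gy the highest library was 3.29 times the lowest. The change over all doses was 0.30 (SE 0.298, adjusted p = 0.647).

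Of the 14 genes listed for coenzyme Q synthesis and reduction, all were tested, 1 fell at 40 Gy against control, and 2 rose and 3 fell against the low doses. COQ8A, an atypical kinase of coenzyme Q synthesis, fell from 54.4 ± 6.37 to 15.3 ± 4.77 FPKM at 40 Gy (log2 -1.80, SE 0.296, adjusted p = 0.0133). Against the low doses COQ8A fell (-1.19, adjusted p = 0.0137) with AIFM2 and the hydroxylase COQ6 (-0.61, adjusted p = 0.0403). The quinone reductase NQO1 rose (0.89, adjusted p = 0.0454) with PDSS1 of the isoprenoid tail (0.59, adjusted p = 0.0472). COQ5, a methyltransferase of the pathway, changed by -0.51 over all doses (SE 0.178, adjusted p = 0.182). The list's median was -0.24 at 40 Gy against control and 0.04 against the low doses (0.06 and 0.07 over all genes).

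GCH1 had the largest change among the members and also the widest spread. It encodes GTP cyclohydrolase, the entry and rate-limiting step of tetrahydrobiopterin synthesis (ENSSSCG00000035715, chromosome 1, 184201232 to 184264060, overlapping a long noncoding RNA). Its level was 3.59 and 5.98 FPKM in control, 33.3, 12.7 and 35.9 at 20 Gy, 14.1, 12.9 and 37.0 at 30 Gy, and 2.41, 12.8 and 12.5 at 40 Gy. Every low-dose library lay above both controls. Library 40Gy-1 lay below both controls and the other 40 Gy libraries above them.

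None of the GCH1 changes passed the test: 2.19 at 20 Gy (SE 0.693, adjusted p = 0.134), 2.05 at 30 Gy (SE 0.759, adjusted p = 0.293), 0.60 at 40 Gy (SE 0.693, adjusted p = 0.65) and -1.52 at 40 Gy against the low doses (SE 0.559, adjusted p = 0.0926). Over all doses it was 1.62 (SE 0.602, adjusted p = 0.206). Without 40Gy-1 the changes passed over all doses (1.84, adjusted p = 0.0413) and at 20 Gy (2.19, adjusted p = 0.0331), and the latter also with only control and 20 Gy in the fit (adjusted p = 0.0416). Without 40Gy-1, 1045 of 11499 genes were called over all doses and 1167 at 20 Gy, where 337 and 295 of 11610 were called with all libraries. With only control and 20 Gy in the fit, 595 of 11073 genes were called.

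The low-dose values of GCH1 fell into 2 levels that cut across dose. Libraries 20Gy-1, 20Gy-3 and 30Gy-3 had 33.3 to 37.0 FPKM, and 20Gy-2, 30Gy-1 and 30Gy-2 had 12.7 to 14.1. DHODH had the same order, with 5.0 to 6.49 and 1.97 to 3.11 FPKM, and CBS too, with 151 in each of the former and 101 to 108 in the latter. GSS and HSPB1 ran the other way, with 8.18 to 10.5 against 10.7 to 12.2 FPKM and 242 to 432 against 350 to 740, the last of which overlap. The former include the near-identical 20Gy-3 and 30Gy-3 and the latter the 30 Gy pair, so these values come from fewer distinct profiles than libraries. No test was made between sets that the data defined.

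Of the 7 genes listed for tetrahydrobiopterin, 5 were in the table and tested, and 2 fell at 40 Gy against control. QDPR, which regenerates tetrahydrobiopterin, fell from 328 ± 39.8 to 164 ± 15.7 FPKM (-0.99, SE 0.23, adjusted p = 0.0437). PCBD1, the dehydratase of the same recycling pathway, fell from 573 ± 112 to 277 ± 24.4 (-1.04, SE 0.244, adjusted p = 0.0451) and also against the low doses (-0.89, adjusted p = 0.0192). The synthesis enzymes PTS and SPR did not pass the test in any of the 5 comparisons.

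GSS, glutathione synthetase, joins glycine to gamma-glutamylcysteine in the last step of glutathione synthesis (ENSSSCG00000007287, chromosome 17, 38316199 to 38342253, its end overlapping a long noncoding RNA). Its level was 19.2 and 11 FPKM in control, 10.5, 10.7 and 8.18 at 20 Gy, 10.8, 12.2 and 8.63 at 30 Gy, and 13.7, 14.1 and 13.6 at 40 Gy. The controls lay far apart. All 3 libraries at 40 Gy lay above all 6 low-dose libraries, with a change of 0.45 (SE 0.2, adjusted p = 0.149). The change over all doses was -0.37 (SE 0.216, adjusted p = 0.408) and went to 0.00 without control-1.

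CBS, cystathionine beta-synthase, starts transsulfuration, which makes cysteine from homocysteine (ENSSSCG00000040779, chromosome 13, 206205942 to 206231363). Its level was 166 and 336 FPKM in control, 151, 101 and 151 at 20 Gy, 108, 106 and 151 at 30 Gy, and 57.8, 289 and 289 at 40 Gy. All low-dose libraries lay below both controls, whereas 40Gy-1 was the lowest library of all and the other 40 Gy libraries lay within the range of control. No comparison passed the test: -0.84 at 20 Gy (SE 0.655, adjusted p = 0.51), -0.89 at 30 Gy (SE 0.717, adjusted p = 0.664), -0.48 at 40 Gy (SE 0.655, adjusted p = 0.71) and 0.38 at 40 Gy against the low doses (SE 0.528, adjusted p = 0.64). Without 40Gy-1 the last was 1.15 and passed (adjusted p = 0.0205). That fit called 4052 of 11499 genes against the low doses, where 1783 of 11610 were called with all libraries. Library 40Gy-1 also differed from 40Gy-2 and 40Gy-3 in markers of other cells. Its 7 stellate cell markers summed to 347 FPKM against 46.3 and 38.3, and its 5 T and NK cell markers to 31.6 against 9.35 and 7.26. The stellate sum of 40Gy-1 was mostly COL1A1 (139 FPKM) and COL3A1 (107). DES of that list was lower in 40Gy-1 (3.77 against 7.73 and 5.73), whereas the others were higher. The 6 endothelial markers summed to 87.7 against 213 and 185, but did not all go in the same direction. CLEC4G (20.5 against 164 and 146) and KDR were lower in 40Gy-1. PECAM1 (26.5 against 13.9 and 11.2), CDH5 (19.7 against 11.6 and 8.57), TEK and LYVE1 were higher. The part of these markers in the CBS, GCH1 and HSPB1 values of 40Gy-1 was not tested.

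Around these members, 9 of 11 genes listed for glutathione synthesis and recycling were tested. OPLAH, which returns 5-oxoproline to glutamate, rose from 20.6 ± 0.264 FPKM in control to 51.8 ± 1.13 at 20 Gy (1.28, SE 0.172, adjusted p = 0.00688) and 46.8 ± 4.33 at 30 Gy (1.14, SE 0.188, adjusted p = 0.0263). At 40 Gy it was 16.0 ± 0.535, lower than at the low doses (-1.56, SE 0.138, adjusted p = 5.47e-04). CHAC1, which degrades glutathione, had 0.430 ± 0.0572 FPKM in control, rose to 10.2 ± 5.30 at 20 Gy (2.83, SE 0.563, adjusted p = 0.034) and fell at 40 Gy against the low doses (-2.24, SE 0.454, adjusted p = 0.0144). GCLM, the modifier subunit of the enzyme that limits glutathione synthesis, changed by 1.0 over all doses (SE 0.262, adjusted p = 0.0832). In the list of the methionine cycle and transsulfuration 9 of 10 genes were tested and none passed against control. BHMT, which remethylates homocysteine, changed by -0.91 over all doses (SE 0.276, adjusted p = 0.126), and CTH, the enzyme after CBS, by -0.86 (SE 0.866, adjusted p = 0.652).

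HSPB1, the small heat shock protein HSP27, a chaperone of actin filaments reported to limit iron uptake in ferroptosis (ENSSSCG00000039962, chromosome 3, 10038074 to 10039441), did not differ between groups beyond its spread. Its level was 397 and 291 FPKM in control, 432, 740 and 263 at 20 Gy, 376, 350 and 242 at 30 Gy, and 657, 221 and 130 at 40 Gy. The highest 2 libraries were 20Gy-2 and 40Gy-1, and 40Gy-3 was the lowest. The change was -0.06 over all doses (SE 0.56, adjusted p = 0.969), 0.36 at 20 Gy, -0.20 at 30 Gy and -0.35 at 40 Gy (SE 0.645, adjusted p = 0.786), and the first of these changed sign when libraries were rescaled to equal totals (0.10) or quantile-normalized (0.09). All 11 genes of the heat shock list were tested, and none passed in any of the 5 comparisons. The co-chaperone BAG3 changed by 1.23 over all doses (SE 0.481, adjusted p = 0.225) and DNAJB1 by -0.95 (SE 0.494, adjusted p = 0.356).

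Selenium supply bears on GPX4, whose active site holds selenocysteine. Of 9 listed genes 6 were tested. SCLY, which frees selenium from selenocysteine, fell over all doses (-1.09, SE 0.176, adjusted p = 0.0151) and at 40 Gy (-1.42, SE 0.203, adjusted p = 0.00876), from 68.1 ± 12.5 to 24.5 ± 0.416 FPKM. EEFSEC, the elongation factor that brings selenocysteine to the ribosome, rose at 40 Gy against the low doses (0.63, adjusted p = 0.025). Its level was 12.4 ± 0.201 FPKM in control, 6.86 ± 1.32 at 20 Gy, 5.61 ± 0.634 at 30 Gy and 10.1 ± 0.558 at 40 Gy. SEPSECS, which makes selenocysteine on its tRNA, changed by -0.78 over all doses (SE 0.34, adjusted p = 0.275). The list's median was -0.51 over all doses, beside 0.01 over all genes.

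Among 17 tested glutathione peroxidases, peroxiredoxins, thioredoxins and related enzymes, 3 fell and 1 rose at 40 Gy against control, and 4 fell and 2 rose against the low doses, PRDX6 included. The mitochondrial thioredoxin TXN2 fell from 200 ± 2.49 to 92.2 ± 10.6 FPKM at 40 Gy (-1.12, SE 0.21, adjusted p = 0.022) and also over all doses (-0.83, adjusted p = 0.0472). The cytosolic superoxide dismutase SOD1 fell at 40 Gy (-1.16, SE 0.256, adjusted p = 0.0375), whereas the mitochondrial SOD2 rose from 39.9 ± 9.63 to 101 ± 21.1 FPKM (1.32, SE 0.249, adjusted p = 0.0229). Against the low doses SOD1 (-1.39, adjusted p = 0.00412), catalase CAT (-1.85, adjusted p = 0.016) and PRDX5 (-0.91, adjusted p = 0.0327) fell with PRDX6, and SOD2 (1.81, adjusted p = 0.00117) and the thioredoxin reductase TXNRD1 (1.37, adjusted p = 0.0227) rose. PRDX1, a cytosolic relative of PRDX6, changed in the other direction over all doses (0.79, SE 0.227, adjusted p = 0.108), which did not pass the test.

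**Figure D3:**
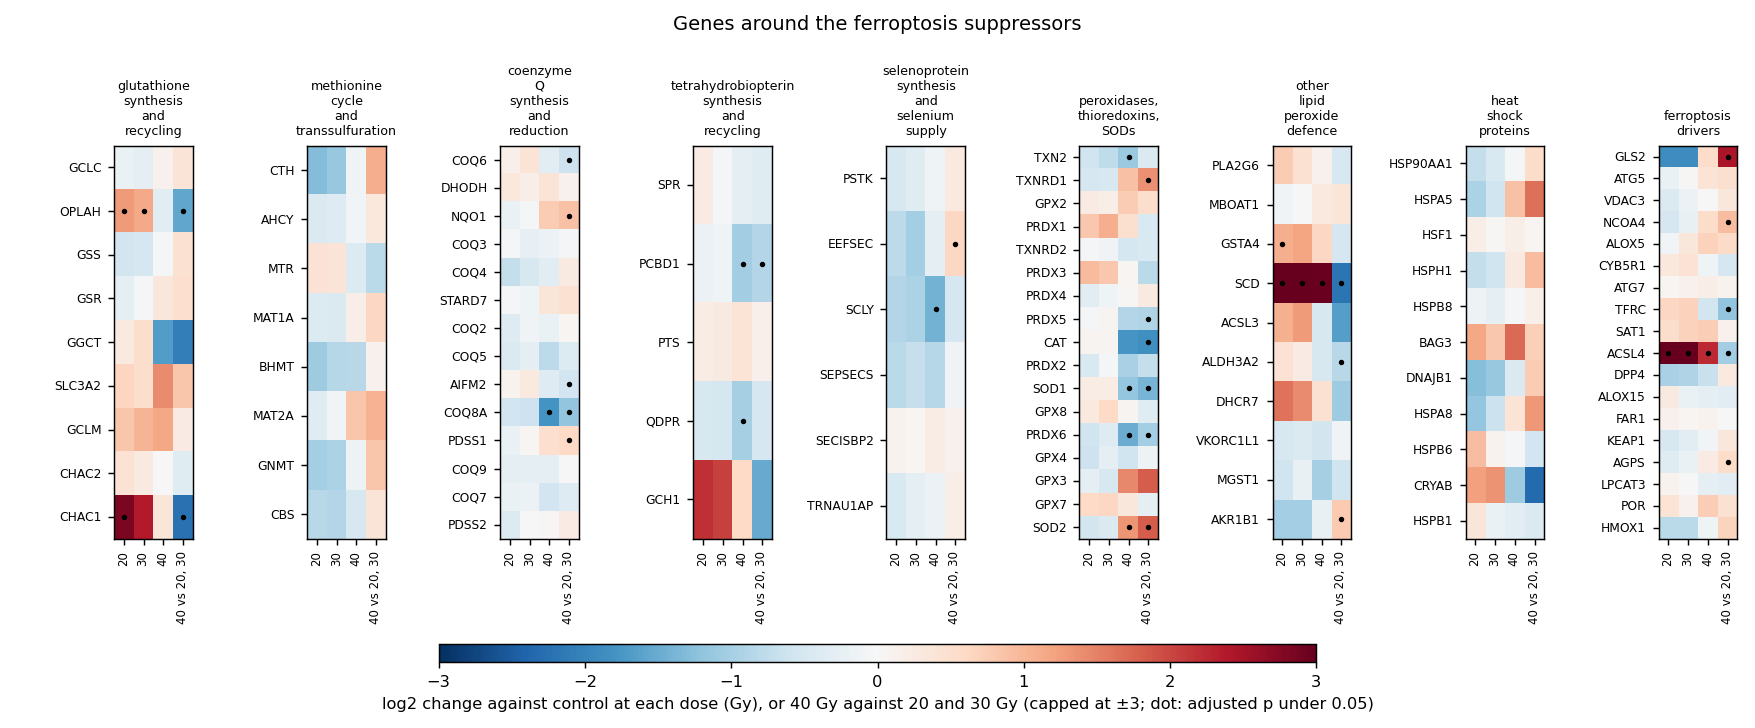
Colour gives the change of log2(FPKM + 1), capped at 3 in either direction, for the tested genes of the 9 lists around the members (rows; 1 gene is not shown), at 20, 30 and 40 Gy against control and at 40 Gy against the low doses (columns). A dot marks an adjusted p under 0.05 in the limma test. At 40 Gy the falls of PRDX6, SCLY, COQ8A, TXN2, SOD1, PCBD1 and QDPR and the rises of SOD2, SCD and ACSL4 carry dots, whereas no gene of the heat shock list does.

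Of 13 genes listed for other lipid peroxide defence 10 were tested. SCD, the desaturase whose monounsaturated products resist peroxidation, rose from 5.05 ± 1.81 FPKM in control to 197 ± 62.2 at 20 Gy, 234 ± 92 at 30 Gy and 45.6 ± 10.3 at 40 Gy. The change over all doses was 4.41 (SE 0.311, adjusted p = 3.05e-04), and at 40 Gy it stood below the low doses (-2.18, adjusted p = 0.00247). GSTA4, which conjugates the peroxidation product 4-hydroxynonenal, rose over all doses (0.97, SE 0.203, adjusted p = 0.0424) and at 20 Gy (1.09, adjusted p = 0.0448). Against the low doses ALDH3A2, which oxidises fatty aldehydes, fell (-0.83, adjusted p = 0.0209) and aldose reductase AKR1B1 rose (0.79, adjusted p = 0.0464). DHCR7 of cholesterol synthesis changed by 1.17 over all doses (SE 0.374, adjusted p = 0.149).

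Ferroptosis drivers were set beside the suppressors, with 18 of 21 listed genes tested. Only ACSL4, which loads polyunsaturated fatty acids into membrane lipids, passed against control: 1 of 18 rose and none fell over all doses and at each dose. Its level was 2.81 ± 0.625 FPKM in control, 33.7 ± 9.59 at 20 Gy, 39.4 ± 11.6 at 30 Gy and 18.1 ± 9.13 at 40 Gy. ACSL4 rose by 2.93 over all doses (SE 0.33, adjusted p = 0.00428), by 3.16, 3.39 and 2.23 at 20, 30 and 40 Gy, and was lower at 40 Gy than at the low doses (-1.04, adjusted p = 0.049). Against the low doses the glutaminase GLS2 (2.44, adjusted p = 0.0197), the ferritin cargo receptor NCOA4 (0.93, adjusted p = 0.00838) and the ether lipid enzyme AGPS (0.54, adjusted p = 0.0459) rose, and the transferrin receptor TFRC fell (-1.19, adjusted p = 0.0374). The median change of the drivers over all doses was 0.01, as over all genes, and that of the 8 suppressors was -0.21. The medians of the other lists lay on both sides of that of all genes. They were 0.26 for other lipid peroxide defence, 0.23 for glutathione synthesis and recycling, and -0.02 for tetrahydrobiopterin. The rest were -0.14 for peroxidases and thioredoxins, -0.15 for coenzyme Q, -0.16 for heat shock proteins, -0.31 for the methionine cycle and -0.51 for selenium supply.

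Calls among these surrounding genes depended on few libraries and on the groups in the fit. Over all doses GSTA4, OPLAH and TXN2 were lost without each of 20Gy-1, 20Gy-2, 20Gy-3, 30Gy-3, 40Gy-2 and 40Gy-3. At 20 Gy GSTA4 was lost without each of the same libraries. CHAC1 at 20 Gy was lost without each of control-1, control-2, 20Gy-1, 20Gy-3 and 40Gy-2, and without 20Gy-3 and 30Gy-3 together. At 30 Gy OPLAH was lost without each of control-1, control-2, 20Gy-1, 20Gy-3, 30Gy-3, 40Gy-2 and 40Gy-3. At 40 Gy against control, 8 of 9 calls were lost with only these groups in the fit (all but SCD). Of 9 called at 40 Gy against control, 8 were lost without control-1 (all but SCD), 8 without control-2 (all but SCLY), 6 without 40Gy-2, 5 without 40Gy-3, 4 without 20Gy-1, 3 without 20Gy-3, 3 without 30Gy-3 and 2 without 20Gy-2, and 7 with equal totals. Of 22 called against the low doses, 15 were lost without 30Gy-3, 15 without 40Gy-2, 14 without 40Gy-3, 11 without 20Gy-1, 10 without 20Gy-3, 6 without control-1, 5 without control-2, 4 without 20Gy-2, 2 without 30Gy-2, 1 without 40Gy-1 and 18 without 20Gy-3 and 30Gy-3 together. Those kept without this pair included OPLAH, SCD and SOD2. Of 6 called over all doses, 5 were lost without control-2 (ACSL4, GSTA4, OPLAH, SCLY and TXN2, with adjusted p of up to 0.101, 0.357, 0.288, 0.168 and 0.356 over all alternatives) and 4 without control-1. Of 5 called at 20 Gy, 4 were lost without control-2, and of 3 at 30 Gy, 2 without control-2 and 2 without 30Gy-3, and SCD was kept in each of these cases.

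The genes whose profile was most like that of a member were found by Pearson's r of log2(FPKM + 1) over the 10 profiles. Since 20Gy-3 and 30Gy-3 were near-identical, the profiles are not independent, and r is a description only. GPX4 ran with NDUFB4, a subunit of respiratory complex I (r = 0.974), and with the ribosomal proteins RPL28 (0.973) and RPLP1 (0.970). These 3 spread further than GPX4: RPL28 had 107 FPKM in 20Gy-1 and 347 in control-1, where GPX4 had 47.3 and 95.8. PRDX6 was most like METTL27 (0.969), NUDT2 (0.966) and HCFC1R1 (0.960), each lower at 40 Gy than in every other library. METTL27 had 3.98, 5.18 and 8.83 FPKM at 40 Gy against 38.2 and 33.4 in control.

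Among the genes most like GCH1 were GEMIN5, which binds small nuclear RNAs for the assembly of splicing particles (r = 0.989), and the scaffold protein MAGI1 (0.979). GEMIN5 had 4.43, 5.12 and 4.76 FPKM in 20Gy-1, 20Gy-3 and 30Gy-3, 3.09, 3.24 and 3.24 in 20Gy-2, 30Gy-1 and 30Gy-2, and 2.06 and 2.22 in control. At 40 Gy it had 1.88 in 40Gy-1 and 3.19 and 3.28 in the other libraries, so 40Gy-1 lay below both controls, as for GCH1. AIFM2 was most like COASY (0.945), SLC4A4 (0.944) and SPATA24 (0.943), DHODH most like PPM1B (0.920), KBTBD6 (0.911) and STAU2 (0.911), and GSS most like SERPINC1 (0.932), NCSTN (0.928) and XXYLT1 (0.921). CBS was most like OSBPL2 (0.964), COX19 (0.962) and LMBR1L (0.961), and HSPB1 most like EHD1 (0.969), MYH14 (0.967) and JMJD8 (0.957).

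**Figure D4:**
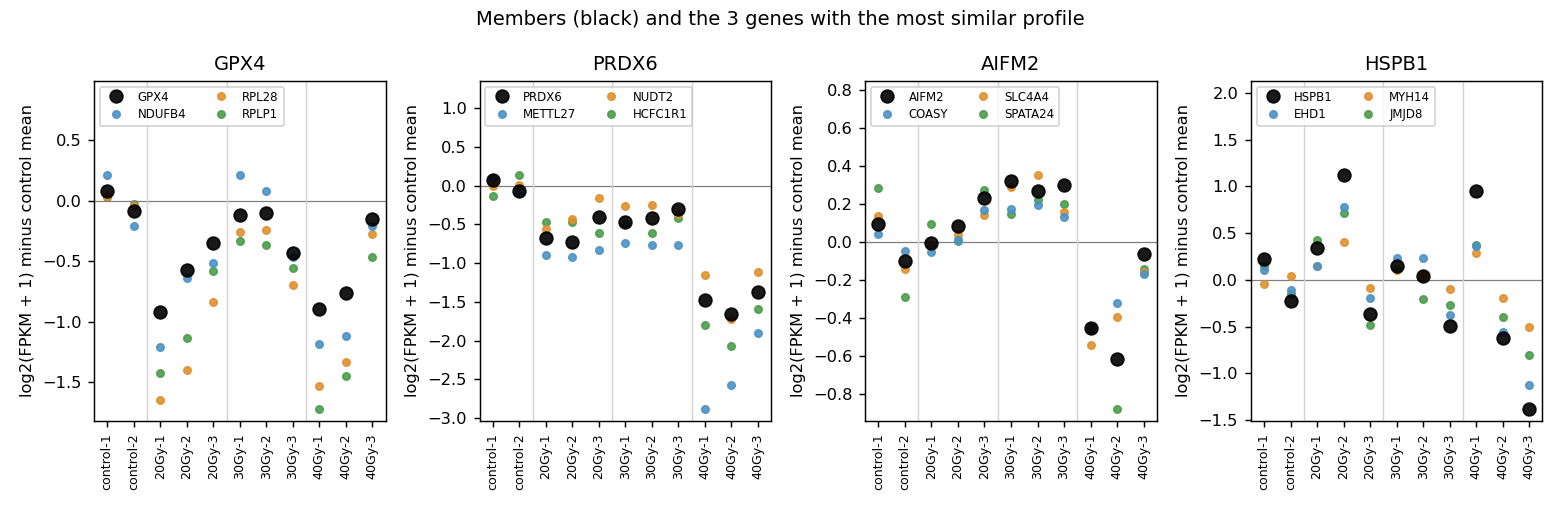
Level of 4 members (black) and of the 3 genes most like each (colours), as log2(FPKM + 1) minus the control mean (y axis), in each of the 11 libraries (x axis, with grey lines between dose groups). PRDX6 and METTL27 are lowest at 40 Gy (r = 0.969). HSPB1 is high in 20Gy-2 and 40Gy-1 (740 and 657 FPKM).

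Among themselves the members did not share 1 profile. Over the 10 profiles the highest correlations were between PRDX6 and AIFM2 (r = 0.76) and between GPX4 and PRDX6 (0.62), and the lowest were between CBS and HSPB1 (-0.77) and between GCH1 and GSS (-0.77). CBS was lowest and HSPB1 second highest in 40Gy-1, with 57.8 and 657 FPKM, and in 40Gy-3 they stood at 289 and 130.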

How the data were processed

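The authors deposited 1 table of FPKM (per the file headers) with 12505 genes and 11 columns, each named for 1 library. Total RNA was sequenced as paired-end reads, per the labels' protocols. HISAT2, Cufflinks and HTSeq and the builds Sscrofa11.1 and mm10 are named in the submitters' processing notes, with no role or order. The sources used here do not give the annotation, any filter or the use of strand, so overlapping genes may share reads.

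Low values were searched for steps worth 1 read and no step shared by all genes was found, so no counting interval can be given. FPKM depends on each library's total. Symbols came from a table of gene names (10561 of 12505 IDs matched), and coordinates from the RefSeq table of Sscrofa11.1, by symbol. No sequences are printed.

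FPKM of 30Gy-1 and 30Gy-2 were averaged. Genes of 1 FPKM or more in 2 or more of 10 profiles were analysed as log2(FPKM + 1), which understates changes of low genes. limma 3.58.1 (R 4.3.3) fitted 4 group means with eBayes and trend (6 residual degrees of freedom). Two-sided p-values were adjusted by Benjamini-Hochberg over 11610 genes, and called under 0.05. The method was tested on simulated data with independent noise of equal spread in all groups. The simulation held no near-identical libraries, so it does not cover that feature of these data.

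Members, lists and tests were chosen with earlier results of these data known. Named genes were the 8 members, every list gene called in any of the 5 comparisons, the 2 genes of each list with the largest change over all doses, and the 3 genes most like each member. Genes that this rule would also name are not all reported here, although the counts include them. Alternatives covered the pseudocount, filters, scaling, the near-identical libraries, the groups in the fit, the trend, a replicate block and leaving out each library.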

Additional observations from a re-analysis of the deposited data

How the results depend on the processing

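Over the 40 results of a member in a comparison there were 872 values under alternatives: 805 kept direction and side of the threshold, 31 lost a call, 4 gained one and 32 changed sign. PRDX6 and GPX4 changed sign in none. Sign changes touched 10 results, none past the threshold. AIFM2 over all doses was -0.04 with equal medians, -0.01 when 20Gy-3 and 30Gy-3 were left out and -0.07 with a replicate block, and -0.09 to 0.10 with each library left out. HSPB1 over all doses was 0.10 with equal totals, 0.09 after quantile normalization, 0.16 when 20Gy-3 and 30Gy-3 were left out and 0.33 with the block (-0.28 to 0.16 leaving out each library). Without 20Gy-3 and 30Gy-3, which leaves 30 Gy with 1 profile, DHODH at 30 Gy was -0.37 and HSPB1 0.09, and with the block they were -0.16 and 0.26. GSS at 40 Gy was 0.02 with equal totals and 0.01 with the block, as was HSPB1 with the block (0.01). Leaving out each library gave GSS over all doses -0.75 to 0.00, HSPB1 at 20 Gy -0.01 to 0.73, DHODH at 30 Gy -0.37 to 0.47, HSPB1 at 30 Gy -0.42 to 0.09, GSS at 40 Gy -0.44 to 0.30, CBS at 40 Gy -0.98 to 0.29, HSPB1 at 40 Gy -1.0 to 0.16, and HSPB1 against the low doses -1.08 to 0.08.

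The genes called over all doses, at 20, 30 and 40 Gy and against the low doses numbered 337, 295, 130, 548 and 1783. They were 99, 139, 58, 148 and 942 with equal totals, and 42, 59, 8, 123 and 202 without 20Gy-3 and 30Gy-3. With 11 libraries kept separate they were 548, 492, 353, 861 and 2508. With only the compared groups they were 595 at 20 Gy and 48 at 40 Gy (over all doses every group is compared). Leaving out each library gave 19 to 1045, 35 to 1167, 14 to 522, 65 to 2224 and 428 to 4052. The cause was not tested. Without 1 control, the other is assumed to vary like the other groups.

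Equal totals moved the median change of all genes over all doses from 0.01 to 0.14, at 20 Gy from -0.03 to 0.18 and at 30 Gy from -0.03 to 0.08. The share of calls that rose went from 40.7% to 59.6% over all doses, from 48.8% to 65.5% at 20 Gy and from 40.0% to 63.5% at 40 Gy. With equal medians it was 26.8% at 40 Gy and 37.0% against the low doses (52.8% as deposited), with only the compared groups 56.8% at 30 Gy (45.4%) and 52.1% at 40 Gy, and without 20Gy-3 and 30Gy-3 61.0% at 20 Gy and 35.6% against the low doses. Not every same-numbered pair of libraries deviated together: r was above 0.1 in 7 of 15 such pairs (-0.62 to 0.65) and in 8 of 30 pairs with different numbers (-0.81 to 0.74). The 3 pairs of irradiated libraries numbered 3 were all above it (0.57, 0.357 and 0.103), among them the near-identical 20Gy-3 and 30Gy-3, and 20Gy-2 with 30Gy-2 had 0.645. With 5 of 11 libraries correlating best with their own number, the numbers were not taken as pairs. A replicate block, with 11 libraries separate, called 440, 399, 244, 805 and 2554 genes. Without read counts, the precision of low genes such as DHODH cannot be given.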
